A study of Rattus norvegicus with 2 samples.

Results

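The genes of 5 red cell membrane proteins, Slc4a1, Dmtn, Aqp1, Rhd and Rhag, were followed across the cell types of a rat facial suture. They were chosen by name from the 22154 genes listed in at least 1 of the 2 count tables, and both tables hold all 5. The tissue was the zygomatic maxillary suture, the joint between cheek bone and upper jaw, of 4-week-old rats. In the distraction group (DO) a W-shaped distractor of nickel-titanium wire, 0.4 mm thick and giving 20 g of force at the start, pulled on the bones for 7 days. In the sham group (SC) holes were drilled, no distractor was placed, and the suture was likewise of day 7. The rats were anesthetized with chloral hydrate, and the suture tissue was crushed into a suspension whose cells were captured on a BD Rhapsody cartridge. Each group is 1 single-cell library, and the sources used here do not give the number, sex or strain of the rats behind it.

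Since each group has a single library, differences between distraction and sham have no replicate check, were not tested and carry no p-value. Each interval is a 95% interval that covers counting error only. Counts are molecules told apart by a random tag (UMIs), and levels are scaled to 1000000 UMIs of a cell class (CPM). After filtering, 4037 distraction cells (median 4161 UMIs) and 5183 sham cells (median 3033 UMIs) remained, and 22 cell barcodes occurred in both libraries. Cells were put into classes by marker genes that do not include the 5 genes.

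Red cells lose their nucleus late in development, so the membrane proteins of the mature cell are made from RNA of the last nucleated stages and of the reticulocyte. Slc4a1 encodes band 3, the exchanger of chloride and bicarbonate, which also ties the membrane to the spectrin skeleton through ankyrin. Dmtn encodes dematin, which bundles actin at the junctions of that skeleton. Aqp1 encodes the water channel aquaporin 1, also known from the endothelium of small vessels. Rhag encodes the Rh-associated glycoprotein, a channel for ammonia, and Rhd the Rh protein that needs it to reach the cell surface.

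The erythroid class held 394 distraction cells, or 9.76% of the library (8.86 to 10.7), and 271 sham cells, or 5.23% (4.64 to 5.87). All 9 erythroid markers in the tables were found in it. The haemoglobin-stabilising gene Ahsp was in 100% of its distraction cells and 99.6% of its sham cells, and Kel, which encodes a blood group protein, in 87.3% and 85.2%. Gata1 was not analysed here.

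Most counts of the 5 genes lay in that class. It held 91.9% of the distraction library's Slc4a1 counts and 86.8% of the sham library's. For Dmtn the shares were 90.7% and 81.6%, for Rhd 90.5% and 83.9%, and for Rhag 90.3% and 84.0%. Aqp1 had the lowest share in each library, 81.4% in distraction and 77.9% in sham. Much of the rest was in cells that passed the marker minimum of more than 1 class and were set apart as mixed. These held 5.37% of the Slc4a1 counts in distraction and 8.35% in sham, and 8.55% and 13.8% of the Aqp1 counts.

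B-lineage cells, which are not known to make these proteins, gave the background level of their RNA outside the erythroid class. Slc4a1 stood there at 16.0 CPM in distraction and 18.7 CPM in sham cells, and Aqp1 at 5.57 and 6.72 CPM. Dmtn was at 1.36 and 1.48 CPM, Rhd at 1.90 and 3.18 CPM and Rhag at 1.09 and 0.961 CPM. With each cell thinned to 2000 UMIs, 3.39% of 1150 distraction B-lineage cells and 3.72% of 2284 sham ones held Slc4a1. In erythroid cells thinned alike, the share was 95.6% of 361 distraction cells and 97.2% of 247 sham cells. The other genes were in 93.6% and 92.3% (Aqp1), 85.9% and 89.9% (Rhd), 66.5% and 63.2% (Rhag), and 56.2% and 57.1% (Dmtn) of thinned erythroid cells, against at most 1.74% of thinned B-lineage cells in either library. Unthinned, Slc4a1 was in 97.2% of distraction and 98.9% of sham erythroid cells, whose median depths were 3936 and 3893 UMIs, and in 7.24% and 6.91% of B-lineage cells, with medians of 3095.5 and 2765 UMIs.

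The 5 genes also kept a similar make-up in B-lineage cells. Slc4a1 gave 61.8% and Aqp1 21.5% of the 191 counts of the 5 genes in distraction B-lineage cells, and 60.2% and 21.7% of 420 in sham ones. In erythroid cells Slc4a1 gave 65.6% and Aqp1 18.0% in distraction, and 67.7% and 16.5% in sham. Endothelial cells differed from this: Aqp1 gave 96.5% of 170 counts in distraction and 100% of 163 in sham. Rhd and Rhag had no UMI in 32 distraction and 19 sham endothelial cells, which allows a level of up to 8.65 CPM in distraction and 18.6 CPM in sham.

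**Figure D1:**
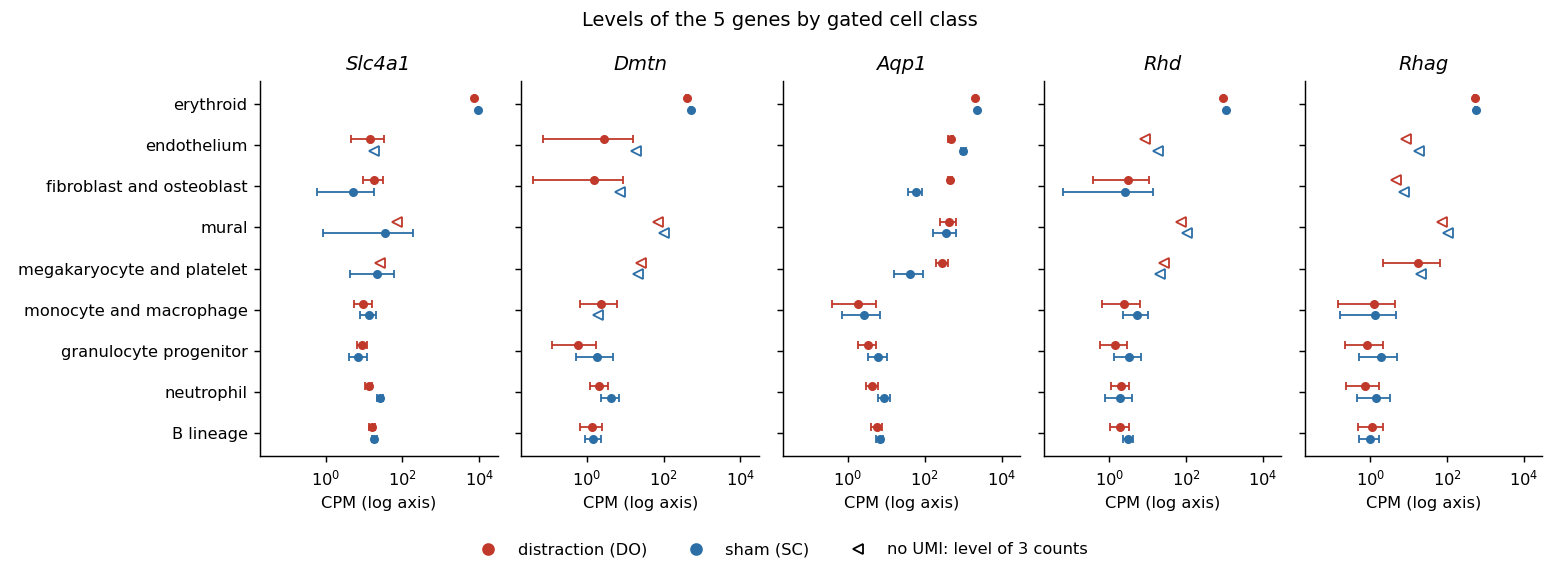
Levels of the 5 genes (CPM, log axis) in 9 marker-gated cell classes, distraction (red, upper point of each pair) and sham (blue), with 95% counting intervals; open triangles stand at the level of 3 counts where a class had no UMI. All 5 genes are highest in erythroid cells, and Aqp1 alone is also above 300 CPM in endothelial and mural cells of both libraries.

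Promoter sequence is shown for the genes that have an entry in the RefSeq promoter table, Aqp1, Rhd and Rhag, since these genes share the erythroid class and Aqp1 also extends beyond it. Each runs 5′ to 3′ on the gene's strand over 300 bases that end 50 bases past the RefSeq start, in build GRCr8, which is not the build of the counts. Capitals mark matches on either strand to 2 motifs known from red cell promoters. The first is the GATA motif, searched as AGATAA, as TGATAA, as AGATAG and as TGATAG, and the second is CACCC, the core of sites bound by KLF1. A match on the opposite strand appears as its reverse complement. No match overlapped another. Slc4a1 and Dmtn are named only.
Aqp1 (chr4:85812534-85812833, plus strand): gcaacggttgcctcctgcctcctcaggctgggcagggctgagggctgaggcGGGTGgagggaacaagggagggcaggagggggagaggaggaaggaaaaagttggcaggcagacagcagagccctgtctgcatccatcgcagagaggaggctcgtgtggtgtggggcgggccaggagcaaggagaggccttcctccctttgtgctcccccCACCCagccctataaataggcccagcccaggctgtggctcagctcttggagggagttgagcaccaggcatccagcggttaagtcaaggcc
Rhd (chr5:152370950-152371249, plus strand): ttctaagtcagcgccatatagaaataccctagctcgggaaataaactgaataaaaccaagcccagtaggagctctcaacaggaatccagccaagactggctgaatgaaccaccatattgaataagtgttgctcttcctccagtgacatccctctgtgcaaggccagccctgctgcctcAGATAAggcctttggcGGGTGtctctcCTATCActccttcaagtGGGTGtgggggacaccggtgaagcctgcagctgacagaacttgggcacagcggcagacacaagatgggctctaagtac
Rhag (chr9:27594341-27594640, minus strand): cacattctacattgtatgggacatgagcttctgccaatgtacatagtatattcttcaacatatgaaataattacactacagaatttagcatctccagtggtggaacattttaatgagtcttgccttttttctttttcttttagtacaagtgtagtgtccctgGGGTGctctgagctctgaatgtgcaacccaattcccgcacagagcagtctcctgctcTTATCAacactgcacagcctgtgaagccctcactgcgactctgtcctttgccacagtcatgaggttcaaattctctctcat

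Rhd has 2 GATA matches, the nearer at bases -45 to -40 from the start, and 2 CACCC matches. Rhag has a GATA match at -31 to -26 and a CACCC match at -88 to -84. Aqp1 has 2 CACCC matches, at -199 to -195 and -40 to -36, and these GATA letters do not occur in its window. Of 33469 rat promoters of that length, 30.3% hold a GATA match, 54.9% a CACCC match and 14.3% both, so a match is a description of these letters and no more.

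Erythroid cells were divided into stages by genes other than the 5. Early cells held at least 2 of Kit, Gata2, Myb, Cdk6, Cd34 and Myc, late cells held Alox15, the lipoxygenase that helps clear mitochondria from reticulocytes, and middle cells were the rest. There were 35 early, 173 middle and 178 late cells in distraction, and 22, 142 and 105 in sham. Haemoglobin made up a median of 0.439%, 32.2% and 47.4% of UMIs along these stages in distraction and 0.528%, 29.9% and 47.9% in sham. Early cells were also far deeper, with medians of 29078 UMIs in distraction and 31624.5 in sham, against 3822.5 and 3690.0 in late cells, so a level in CPM and a number of UMIs per cell are both given below.

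Slc4a1, the anion exchanger gene, stood at 1051 CPM in early, 11134 in middle and 14236 in late distraction cells. In sham cells it stood at 1680.2, 13015 and 16411 CPM. Late cells were 13.6 times early cells in distraction and 9.77 times in sham. Per cell it went up as well, with 27.9, 50.9 and 60.4 UMIs in distraction and 44.8, 62.3 and 63.9 in sham. Late over early, its UMIs per cell were 2.17 times higher in distraction and 1.43 times in sham, while the same ratio for the other 4 genes lay between 0.306 and 1.17.

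Dmtn, the actin-bundling gene, was at 140.1, 650.0 and 612 CPM along the stages in distraction and at 142, 818 and 609 CPM in sham. Its level was highest in middle cells, though in distraction middle and late cells did not differ beyond counting error (late over middle 0.942, 0.829 to 1.07) and in sham the late level was 0.744 times (0.638 to 0.866) the middle one. Without haemoglobin in the total, those ratios were 1.28 and 1.03. Late over early was 4.37 in distraction and 4.30 in sham. The number of UMIs per cell was 3.71, 2.97 and 2.60 in distraction and 3.77, 3.92 and 2.37 in sham.

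Aqp1, the water channel gene, was at 481, 3062 and 3528 CPM in distraction and 621, 3004 and 3929 CPM in sham, 7.34 and 6.33 times higher in late than in early cells. Its number of UMIs per cell moved little, with 12.7, 13.99 and 14.96 in distraction and 16.5, 14.4 and 15.3 in sham. It was found in 98.9% of late distraction and 98.1% of late sham cells. Endothelial markers summed to 30.2 CPM in early distraction and 22.2 CPM in early sham erythroid cells, against 3592 and 4379 CPM in endothelium, where Aqp1 was also found.

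The Rh genes differed in their step from middle to late cells when measured in CPM. Rhd stood at 297, 1333 and 1525 CPM in distraction and 365, 1572 and 1631 CPM in sham. Rhag stood at 259, 844 and 592 CPM in distraction and 273, 867 and 572 CPM in sham. The late level of Rhd was 1.14 times the middle one in distraction and 1.04 times in sham, where the interval held 1 (0.941 to 1.14), while Rhag was at 0.702 times (counts 447 over 667) and 0.660 times (234 over 589). Per cell, Rhd had 7.89, 6.09 and 6.47 UMIs along the stages in distraction and 9.73, 7.52 and 6.35 in sham, so in sham it too was lower in late than in middle cells (0.845, 0.766 to 0.931). Rhag had 6.86, 3.86 and 2.51 UMIs per cell in distraction and 7.27, 4.15 and 2.23 in sham. With haemoglobin UMIs left out of the total, the late over middle level of Rhag was 0.955 in distraction and 0.916 in sham, with intervals that held 1, and that of Rhd 1.56 and 1.44.

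All 5 genes had a level over 1.5 times higher in late than in early cells in each library. Over all genes with at least 30 counts, 10.7% in distraction and 10.4% in sham passed that fold upward and 78.9% and 79.3% downward. With haemoglobin UMIs left out of the total, the late over early folds were larger, from 4.16 (Rhag) to 24.6 (Slc4a1) in distraction and from 3.84 to 17.9 in sham. When the erythroid cells were instead divided by haemoglobin share into 3 equal parts, the lowest of which also holds middle cells, the highest part over the lowest was 1.41 for Dmtn and 1.06 for Rhag in distraction and below 1, at 0.917 and 0.686, in sham. From middle to late, 0 of the 5 genes passed the fold upward in either library, against 6.56% and 6.49% of all genes. Downward, 0 of 5 passed in distraction, against 65.9% of all genes, and Rhag alone in sham, against 68.4%. Without haemoglobin in the total, Slc4a1 was 1.74 times higher in late than in middle cells in distraction and 1.75 times in sham, and Aqp1 1.57 and 1.82 times.

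**Figure D2:**
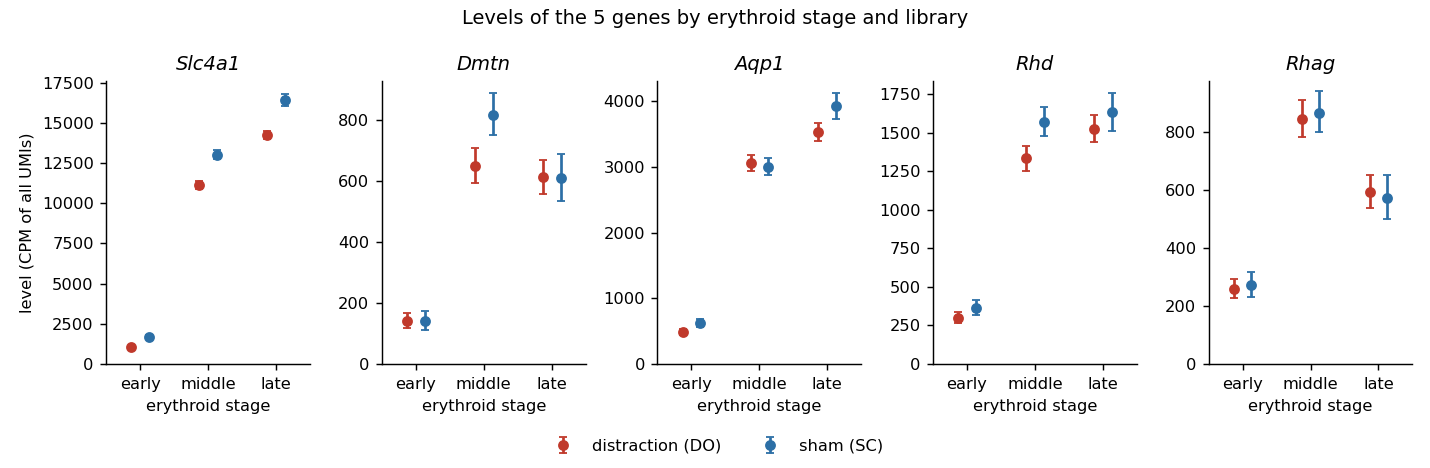
Level of each gene (CPM of all UMIs, linear axis from 0) in early, middle and late erythroid cells of distraction (red, left) and sham (blue, right), with 95% counting intervals. Slc4a1, Aqp1 and Rhd are highest in late cells, while Dmtn and Rhag are highest in middle cells on this scale (Rhag at 844 CPM in middle and 592 CPM in late distraction cells).

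Cells were also ordered by their haemoglobin share in 7 ranges, set after the data had been seen. Under 0.2% haemoglobin there were 19 distraction and 9 sham cells, with median depths of 37602 and 33530 UMIs. Aqp1 was in all of them, 19 and 9, with 7.37 and 8.78 UMIs per cell, whereas Slc4a1 was in 11 and 6 of them, with 3.53 and 9 UMIs per cell. The highest cell gave 34.3% of these Slc4a1 counts in distraction and 46.9% in sham. The level of Slc4a1 there was 97.1 and 266 CPM, against 16.0 and 18.7 CPM in B-lineage cells. Dmtn, in 15 and 5, Rhd, in 15 and 7, and Rhag, in 13 and 5, were likewise found before haemoglobin reached 0.2% of the cell's UMIs. Klf1, an erythroid transcription factor gene and marker of the class, was in all of these cells too.

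The number of Slc4a1 UMIs per cell was 51 in distraction and 41.8 in sham cells with 1 to 5% haemoglobin, and it was highest at 63.9 in the 5 to 20% range in distraction and at 77.5 in the 20 to 40% range in sham. Median depth fell along the ranges, from 15717 UMIs at 1 to 5% to 6579 and 3625 at 5 to 20% and 20 to 40% in distraction, and from 20009 to 4855 and 3881 in sham. In UMIs per cell Rhag was highest at 11.4 in the 1 to 5% range in distraction and 9.82 in the 0.2 to 1% range in sham. In CPM it was highest later, in the 20 to 40% range. Its level over the 1 to 5%, 5 to 20% and 20 to 40% ranges was 541, 789 and 902 CPM in distraction and 384, 700.1 and 1168 CPM in sham. From 40 to 60% it was at 652 and 515 CPM, and from 60% at 167 and 46.6 CPM. The level of Slc4a1 in CPM was highest in the 40 to 60% range in distraction (15325 CPM) and in the 20 to 40% range in sham (18201 CPM).

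At 60% haemoglobin and above, with 43 distraction and 31 sham cells, the genes separated further. Slc4a1, Aqp1 and Rhd were in 100% of the distraction cells, and in 100%, 93.5% and 100% of the sham cells. Dmtn was in 1 of the 43 distraction cells and 7 of the 31 sham cells, with 0.0233 and 0.387 UMIs per cell, against 2.27 and 1.81 in the range from 40 to 60%. Rhag was in 12 and 4 of these cells. Median depth was 3466 UMIs in distraction and 3430.0 in sham, against 3547 and 3638 in the range before. Haemoglobin took a median of 68.9% and 71.0% of these UMIs, against 48.0% and 48.5%, which left fewer for other genes. Without haemoglobin in the total, Dmtn was at 21.3 and 385 CPM, against 1162 and 947 in the range before. Rhag was at 554 and 160 CPM, against 1254 and 981, while Rhd was higher, at 4796 and 4650 CPM, against 2702.5 and 3414. At 60% and above, Epor, the erythropoietin receptor gene, was in 2 cells of each library, and Alox15 in 33 and 25.

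**Figure D3:**
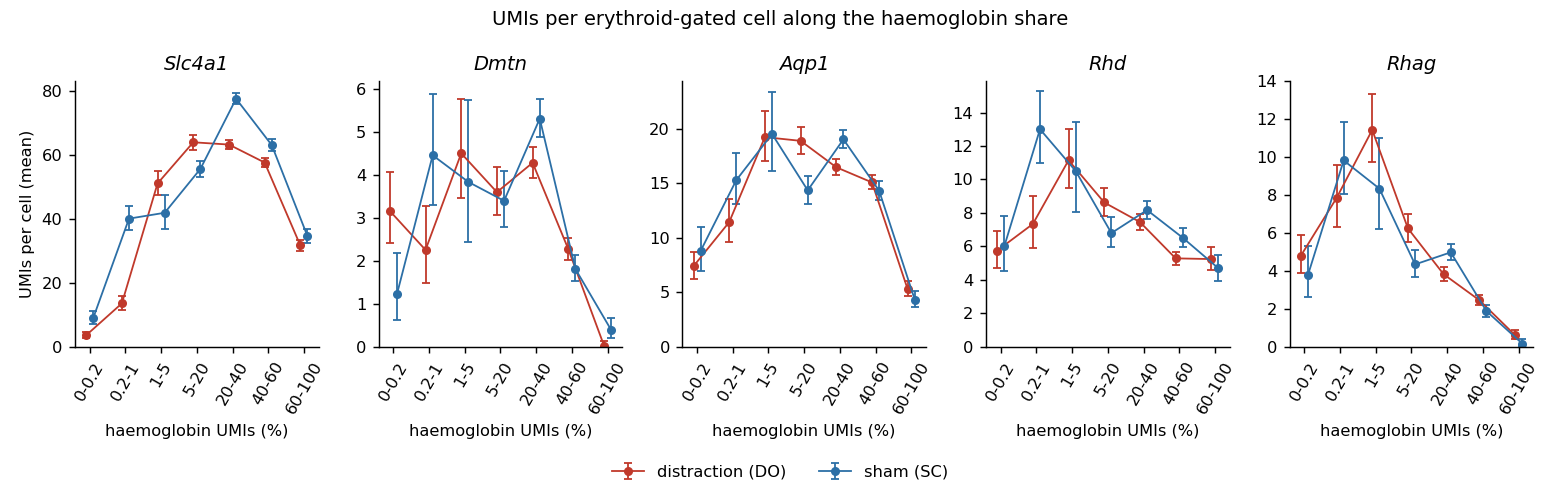
Mean UMIs per erythroid cell for each gene over 7 ranges of the share of haemoglobin UMIs (percent), distraction (red) and sham (blue), with 95% counting intervals; each panel has its own axis from 0. In UMIs per cell Slc4a1 is highest between 5 and 40% haemoglobin and Rhag between 0.2 and 5%, over ranges whose median depth falls from 37602 to 3466 UMIs in distraction and from 33530 to 3430.0 in sham (in CPM Rhag is highest at 20 to 40%, at 902 and 1168 CPM), and Dmtn is at 0.0233 (distraction) and 0.387 (sham) UMIs from 60%.

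Within a stage, cells with more Slc4a1 tended to hold more Aqp1. At 2000 UMIs a cell, Spearman's rho between them was 0.61 over 156 distraction cells and 0.49 over 126 sham cells of the middle stage, and 0.47 over 163 and 0.63 over 98 of the late stage. Of all pairs of the 5 genes, this pair had the highest rho in the middle and late cells of each library. The lowest were 0.013 in middle distraction cells (Dmtn with Rhd) and 0.13 in middle sham cells (Rhd with Rhag). In late cells the lowest were 0.088 in distraction (Slc4a1 with Rhd) and 0.057 in sham (Dmtn with Rhd). In early sham cells (21) Slc4a1 with Rhag was higher than Slc4a1 with Aqp1, at 0.73 against 0.71. These cells share a library each, and the values are a description. Slc4a1 and Aqp1 also had the most UMIs per thinned cell, 25.5 and 6.84 in middle distraction cells, against 1.47 (Dmtn) to 2.70 (Rhd). Low counts lower rho, and the part of abundance in this order was not tested. Of thinned middle cells, 47.4% in distraction and 49.2% in sham held all 5 genes, and of thinned late cells 37.4% and 31.6%.

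Across the whole erythroid class the level of each of the 5 genes was lower in distraction than in sham, by less than 1.5-fold. Slc4a1 was at 7459 CPM in distraction (20910 counts) and 9427 CPM in sham (16583 counts), a ratio of 0.791 (0.775 to 0.808). Dmtn was at 413 and 511 CPM (0.810, 0.742 to 0.885), and Rhd at 935 and 1125 CPM (0.831, 0.784 to 0.881). Aqp1 was at 2045 and 2301 CPM (0.889, 0.854 to 0.925), and Rhag at 524 and 569 CPM (0.921, 0.849 to 0.999). Thus 0 of the 5 passed 1.5-fold, against 12.8% of the 6961 genes with at least 30 counts and 4.97% of the 4504 with at least 100. The median log2 ratio was -0.27 over the 5 genes and -0.00091 over all genes. These sums pool cells of unlike depth and level. Cells with both early markers and Alox15, left unstaged, gave 329607 of 2803153 UMIs in distraction and 84249 of 1759011 in sham. Rhag, at 0.921 over the class, lay between 0.947 and 1.04 in the early, middle and late stages. How far the mix of cells takes part in the ratios of the whole class was not tested. With cells thinned to 2000 UMIs, which gives each cell the same weight, the ratio of Rhag was 1.01 and those of the other 4 stayed below 1, from 0.823 (Rhd) to 0.928 (Aqp1), with an interval that held 1 for Dmtn (log2 -0.16, -0.37 to 0.0496).

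Within single stages Slc4a1 in early cells was the 1 gene past 1.5-fold, at 1051 CPM in distraction and 1680.2 CPM in sham, a ratio of 0.625 (0.572 to 0.684). It was 1 of 5 genes past 1.5-fold in early cells, where 16.7% of 5520 genes were past it and 9.47% downward. With at least 100 counts a gene, these shares were 7.52% and 4.97%. The direction turned when each early cell was thinned to 2000 UMIs, to 2853 CPM (194 counts, 34 cells) in distraction and 2643 CPM (111 counts, 21 cells) in sham, a ratio of 1.08 with an interval that held 1. Cells with no Slc4a1 UMI made up 8 of the 35 early distraction cells and 3 of the 22 early sham cells, and their median haemoglobin shares were 0.0729% and 0.0656%. The cell with most Slc4a1 gave 15.6% of the early counts in distraction and 14.2% in sham. How far unequal maturity within the early stage takes part in this ratio was not tested.

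In middle cells the Slc4a1 ratio was 0.855 (0.831 to 0.881), with 0 of the 5 genes past the fold against 17.0% of all genes. In late cells it was 0.867 (0.841 to 0.894), with 0 of 5 against 23.3%. Aqp1 was at 1.02 (0.961 to 1.08) in middle and 0.898 (0.844 to 0.956) in late cells. Rhag stood between 0.947 and 1.04 in the 3 stages, and each of its intervals held 1. Dmtn was at 0.989 in early, 0.794 (0.703 to 0.897) in middle and 1.01 (0.860 to 1.18) in late cells. Of the 15 ratios of a gene in a stage, 8 had an interval below 1, 7 an interval that held 1, and 0 an interval above 1. In the unstaged cells, which are not among the 15 (8 in distraction, 2 in sham), Slc4a1 was at 2.36 (1.71 to 3.32) and Aqp1 at 1.44 (1.01 to 2.12). The intervals of Dmtn, Rhd and Rhag held 1 there. Of these unstaged cells, the highest gave 40.8% of the Slc4a1 counts in distraction and 90.5% of the 42 in sham. In the haemoglobin ranges the level of Slc4a1 was lower in distraction in 6 of 7, that of Rhd in 5 of 7, Dmtn in 4, Aqp1 in 3 and Rhag in 2. The same counts were not made over all genes, so they have no background here. Intervals are narrow for genes with many counts.

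**Figure D4:**
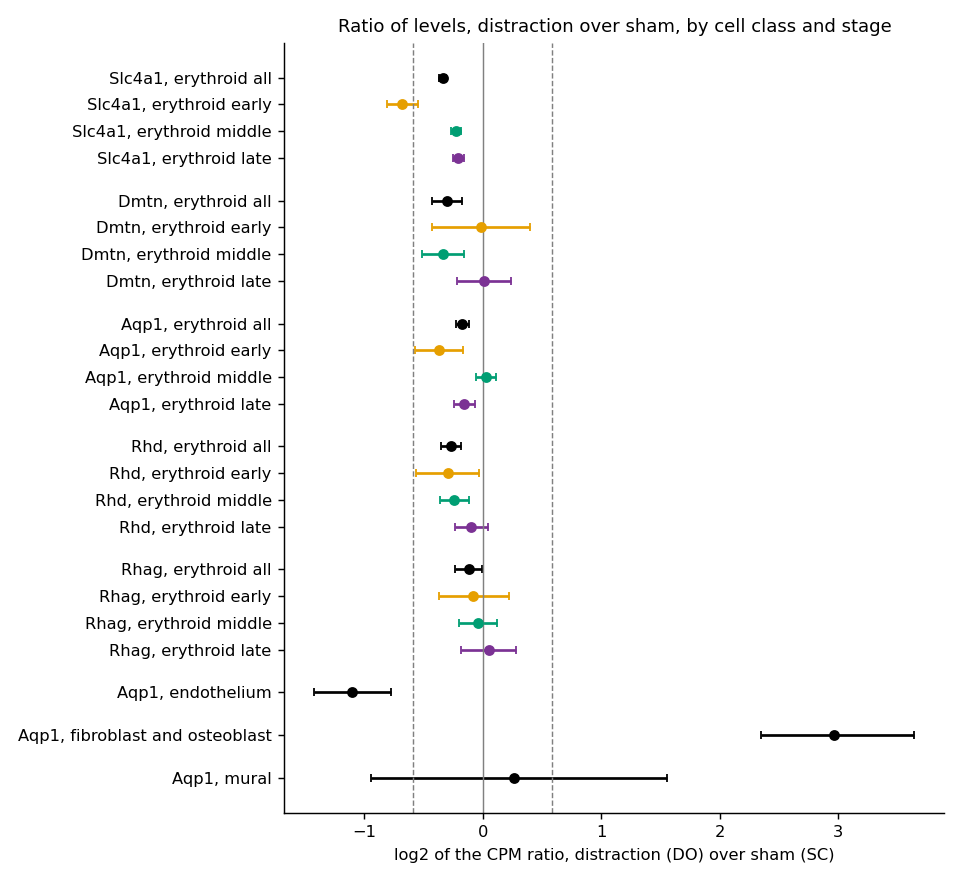
log2 of the CPM ratio, distraction over sham, with 95% counting intervals, for each gene in all erythroid cells (black) and in the early, middle and late stage, and for Aqp1 in endothelial, fibroblast and osteoblast, and mural cells; dashed lines mark 1.5-fold. The erythroid ratios lie within 1.5-fold except Slc4a1 in early cells (ratio 0.625, and 1.08 with cells thinned to equal depth), while Aqp1 lies at -1.10 in endothelium and at 2.96 in fibroblasts and osteoblasts.

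The 5 proteins sit among others of the red cell membrane and its skeleton. Of 29 such genes, 25 had at least 30 counts in erythroid cells. Between distraction and sham, 0 of them were past 1.5-fold upward and 3 downward, against 6.54% and 6.22% of all genes. The 3 were the skeleton genes Epb41 (protein 4.1), at 79.9 CPM in distraction and 126 CPM in sham, Sptb (beta-spectrin), at 27.5 and 44.9 CPM, and Add3 (gamma-adducin), at 6.42 and 19.3 CPM. The median log2 ratio of the list was -0.17.

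The following partners of band 3 stayed within that fold. Epb42 (protein 4.2, which binds band 3) was at 273 CPM in distraction and 289.9 CPM in sham, a ratio of 0.942 (0.842 to 1.06). Ank1 (ankyrin 1) had 41 and 27 counts, a ratio of 0.953 (0.572 to 1.61). Car2, the carbonic anhydrase that makes the bicarbonate band 3 exchanges, was at 5108 and 4919 CPM, a ratio of 1.04. Cd47 and Gypc (glycophorin C), also of the membrane, had ratios of 1.001 and 0.9099.

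In CPM, 15 of 23 measured genes of this list were over 1.5 times higher in late than in early cells in each library. Of all genes, 10.7% (distraction) and 10.4% (sham) were. Past that fold downward were 4 of the list, against 78.9% and 79.3% of all genes. The median log2 ratio of the list was 1.49 and 1.31, against -2.19 and -2.27 over all genes. Kel and Ermap of this list are also markers that defined the erythroid class. The list was chosen with earlier results of these data known, so these shares are a description. Stom (stomatin) was at 215, 741 and 928 CPM in distraction and 321, 834 and 1034 CPM in sham. Kel was at 194, 755 and 816 CPM in distraction and 271, 858 and 799.5 CPM in sham. Most of its gain in CPM thus lay between early and middle cells. Per cell, Kel and Stom were both lower in late than in early cells. Kel had 180 counts over 35 early and 616 over 178 late distraction cells. In sham it had 159 over 22 and 327 over 105 cells. UMIs per cell were not worked out for the rest of the list. The 4 genes lower in CPM in late cells were Tpm3 (a tropomyosin), Slc14a1 (a urea transporter), Bsg (basigin) and Atp2b4 (a calcium pump).

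Relatives of the 5 genes were scarce in erythroid cells. Of 22 listed, 2 had at least 30 counts, the aquaporin gene Aqp3 and the anion exchanger gene Slc4a2. Aqp3, a channel for water and glycerol, was at 439.5 CPM in distraction and 368 CPM in sham over all erythroid cells. It was highest in middle cells, at 758 and 521 CPM. In late cells it stood at 360.4 CPM (272 counts) and 171 CPM (70 counts), a ratio of 2.11 (1.61 to 2.78). That ratio passed the fold, as did 15.7% of genes upward in late cells and 8.31% of those with at least 100 counts. Slc4a2 was at 18.2 CPM in each library, and Slc4a7, a bicarbonate cotransporter gene, at 3.57 CPM (10 counts) in distraction.

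Some genes followed the 5 most closely over 18 units, each a cell class or erythroid stage of 1 library with at least 20 cells. The measure was Pearson's r of log2(CPM + 1), given as a description since the units come from 2 libraries and differ in depth. The units include classes outside the erythroid one, where most of the 5 genes lay near their background level. A high r can come from that contrast alone, so small differences in r do not rank likeness along the stages. Slc4a1 was most like Lgals5 (r 0.984), a galectin gene, then Dmtn (0.984) and Ahsp (0.983). Dmtn was most like Hemgn (0.986), Add2 (0.986) and Ermap (0.984). Rhd was most like Rhag (0.989), Hemgn (0.989) and Ermap (0.987). Rhag was most like Kel (0.995), Tspo2 (0.993) and Hemgn (0.992). Ahsp, Hemgn, Ermap, Kel and Tspo2 are markers that defined the erythroid class. Aqp1 stood apart from the other 4, with r from 0.801 (Rhag) to 0.873 (Slc4a1), while those 4 had r of 0.971 to 0.989 among themselves. Its closest genes were Sox6 (0.961), a transcription factor gene, Abcb6 (0.961), a transporter gene, and Fhdc1 (0.956).

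Among the vessel and stromal classes Aqp1 was the gene of the 5 with most counts. Outside the named classes, in mixed and in unclassified cells, the other genes also lay above their B-lineage level, with Slc4a1 at 443 and 569 CPM in mixed and 100.3 and 158 CPM in unclassified distraction and sham cells. Endothelial cells, 32 in distraction and 19 in sham, held all 12 endothelial markers of the tables in each library. Tie1, an endothelial receptor gene, was among the most frequent, in 93.8% and 89.5% of cells. Vwf was in 28.1% and 15.8%. Marker levels were not all alike: Vwf was at 285 and 49.7 CPM, Cdh5 at 358 and 609 CPM, and Kdr at 453 and 466 CPM. In endothelial cells Aqp1 had 164 counts, or 473 CPM (403 to 551), in distraction and 163 counts, or 1013 CPM (863 to 1180), in sham. It was in 22 of 32 and 14 of 19 of the cells, 68.8% and 73.7%. The ratio was 0.467 (0.374 to 0.584), past 1.5-fold downward, as were 16.3% of 2919 genes in this class and 11.9% of the 914 with at least 100 counts. The part of the marker differences in this ratio was not tested.

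The cells varied widely. The median cell held 2 Aqp1 UMIs in distraction and 8 in sham, and the highest held 22 and 41. The 3 highest cells gave 35.4% and 49.7% of the counts. Median depth was 8962 and 7200 UMIs. Cells with no mural or fibroblast marker, 26 and 16, gave 466 CPM and 869.5 CPM. Thinned to 2000 UMIs, 44.8% of 29 distraction and 50% of 18 sham cells held Aqp1, so the shares of cells with it overlapped within counting error (26.4 to 64.3 and 26.0 to 74.0). Erythroid markers (3 and 5 of 9 found) summed to 74.96 and 31.1 CPM in these cells, and Slc4a1 had 5 counts in distraction and 0 in sham. Neutrophil markers (5 of 8 in each) summed to 159 and 304 CPM, and megakaryocyte and platelet markers (4 and 1 of 7) to 294 and 68.3 CPM. Their part in the result was not tested.

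In the fibroblast and osteoblast class the direction was opposite. Aqp1 had 294 counts, or 450.4 CPM (400.4 to 505), in 58 distraction cells and 23 counts, or 57.7 CPM (36.6 to 86.6), in 35 sham cells, a ratio of 7.80 (5.10 to 12.50). It was past 1.5-fold upward, as were 33.8% of 3822 genes in this class, whose median log2 ratio was 0.34. It was found in 29 of 58 distraction cells, or 50%, and 8 of 35 sham cells, or 22.9%.

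A few distraction cells carried much of it. The highest held 82, 73 and 21 UMIs and gave 59.9% of the counts together, and in sham the highest held 8, 8 and 2. Without the highest cell of each library the log2 ratio was 3.13, against 2.96 with it. This kept the distraction cell of 73 UMIs and took out 8 of the 23 sham counts. Leaving out both high distraction cells was not tried. With cells thinned to 2000 UMIs the log2 ratio was 2.22 (0.87 to 3.92), from 38 counts in distraction and 5 in sham, or 4.64-fold. The class itself was made up differently: 52 of 58 distraction cells and 21 of 35 sham cells had more Col3a1, a fibroblast collagen gene, than Ibsp, a bone matrix gene. Among those Aqp1 was at 500.5 CPM in distraction and 126 CPM in sham, in 29 and 4 cells. In the cells with at least as much Ibsp it had 0 counts over 6 cells in distraction and 5 counts over 14 cells in sham.

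Endothelial markers were also found in this class. They summed to 67.4 CPM in distraction (4 of 12 markers, in 37.9% of cells) and 20.1 CPM in sham (5 of 12, in 14.3% of cells). Cells with no endothelial or mural marker, 33 and 24, held 137 and 22 Aqp1 counts, or 417 and 87.7 CPM. Monocyte and macrophage markers (3 of 8 in each) summed to 484 and 163 CPM, and mural markers (3 and 5 of 6) to 29.1 and 92.9 CPM. The part of monocytes and macrophages in the result was not tested.

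Other small classes held Aqp1 too. Mural cells, the contractile cells around small vessels, had 17 counts (416 CPM, 242 to 666) over 6 distraction cells and 10 counts (346 CPM, 166 to 637) over 6 sham cells. Their ratio was 1.20, with an interval from 0.519 to 2.94 that held 1. Megakaryocyte and platelet cells had 32 counts (279.9 CPM) over 11 distraction cells, 16 of them in 1 cell, and 6 counts (42.3 CPM) over 10 sham cells. Neutrophils, with 4.27 and 8.84 CPM, and monocytes and macrophages, with 1.81 and 2.64 CPM, lay at or near the B-lineage level. In order, the Aqp1 level in distraction was highest in erythroid cells, then endothelium, fibroblasts and osteoblasts, and mural cells, the last 3 with overlapping intervals. In sham the order was erythroid cells, endothelium, mural cells, and fibroblasts and osteoblasts.

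**Figure D5:**
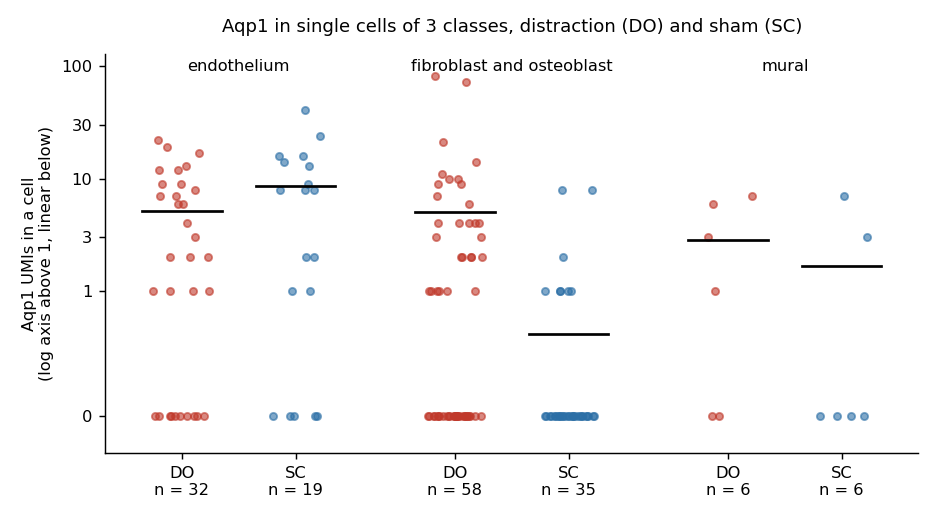
Aqp1 UMIs in single cells of 3 classes (log axis above 1, linear below), distraction (red, left) and sham (blue, right), with n cells and the mean as a bar. In endothelium the highest cells are 22 UMIs in distraction and 41 in sham, and in fibroblasts and osteoblasts 2 distraction cells lie at 82 and 73 UMIs, against at most 8 in sham.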

How the data were processed

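The authors deposited whole-number molecule counts per gene and cell, with no scaling, made with BD's WTA Rhapsody Analysis Pipeline 1.5.1, per the file headers. The submitters' processing notes name Rnor_6.0 and Seurat 3.6 without their roles. No source used here gives the annotation release or the cell-calling rule. Tables listed 20560 (distraction) and 20412 (sham) genes, and a gene in 1 table counted 0 in the other.

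Cells with at least 500 UMIs, 200 genes and under 25% mitochondrial UMIs were kept, of 4889 and 5351 deposited. A cell joined the class with the largest share of its markers found, at 3 markers and 5 marker UMIs or more, and was set apart as mixed if another class passed with over 50% of that share. No doublet caller was run, so doublets remain beyond the mixed cells. Erythroid cells with early markers and Alox15, 8 and 2, stayed unstaged.

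Counts were summed per class and library. Intervals are exact Poisson (levels), conditional binomial (ratios) and Clopper-Pearson (shares) at 95%, from scipy 1.17.1. Only the ratio intervals were tried on simulated counts. Those were Poisson counts without spread between cells or libraries, so they cannot tell how the intervals cover in these data. Floors are 3 counts. A gene was called at 1.5-fold with at least 30 counts over both libraries. The text names all 5 genes, up to 12 genes of the membrane list by level, relatives with at least 10 counts and the 3 most alike genes per member; Epb41, Sptb, Add3, Ank1 and genes lower in late cells were named after their values were seen. Members and lists were chosen with earlier results of these data known. Alternatives changed the gate, depth, scaling, stages and clustering (leidenalg 0.10.2).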

Additional observations from a re-analysis of the deposited data

Results flagged for a closer look

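Aqp1 lay on opposite sides in 2 cell classes. Its log2 ratio, distraction over sham, was -1.10 in endothelial cells (473 and 1013 CPM) and 2.96 in fibroblasts and osteoblasts (450.4 and 57.7 CPM). With 1 library a group, the difference between the classes was not tested.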

How the results depend on the processing

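No paired analysis was possible because each group has 1 library and no replicate numbers. Of 55 alternative values of the erythroid ratios (log2, distraction over sham), 38 stayed within the counting interval and 17 did not. A gate of at least 4 markers gave -0.40 for Slc4a1 and -0.23 for Aqp1. Thinning to 2000 UMIs gave -0.25 for Slc4a1, -0.16 for Dmtn, -0.11 for Aqp1 and 0.019 for Rhag. Leiden clusters gave -0.26 for Slc4a1 and -0.072 for Aqp1. The early stage alone gave -0.68 for Slc4a1, -0.015 for Dmtn and -0.37 for Aqp1, the middle stage -0.23 for Slc4a1 and 0.028 for Aqp1, and the late stage -0.21 for Slc4a1, 0.0079 for Dmtn, -0.10 for Rhd and 0.0499 for Rhag. For Slc4a1 in early cells, thinning turned the ratio to 0.11, and the cause was not tested. The Aqp1 ratio in endothelium ran from -1.31 to -0.77, the value nearest 0 coming from a gate of at least 2 markers. In fibroblasts and osteoblasts it was 2.22 when thinned, 2.25 without cells holding an endothelial or mural marker and 1.99 in cells with more Col3a1 than Ibsp. Both stayed past 1.5-fold under every alternative run, 7 and 8. No alternative was set to leave out both of the highest fibroblast and osteoblast cells of distraction.

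Late over early ratios (log2, distraction and sham) moved with the definition of stage and with the scale. With 3 equal parts by haemoglobin share they were 1.93 and 1.47 for Slc4a1, 0.50 and -0.13 for Dmtn, 1.49 and 0.95 for Aqp1, 1.23 and 1.10 for Rhd, and 0.081 and -0.54 for Rhag, so Dmtn and Rhag turned in sham. The lowest part holds early and middle cells by construction. Scaled without haemoglobin they were 4.62 and 4.16 for Slc4a1, 2.99 and 2.98 for Dmtn, 3.74 and 3.54 for Aqp1, 3.22 and 3.03 for Rhd, and 2.06 and 1.94 for Rhag. Thinned shares of erythroid cells (distraction and sham) were 56.2% and 57.1% for Dmtn, 93.6% and 92.3% for Aqp1, 85.9% and 89.9% for Rhd, and 66.5% and 63.2% for Rhag, and those of Slc4a1 stayed within the interval. With at least 100 counts a gene, 4.97% of genes passed 1.5-fold in erythroid cells. Of the membrane list 2 were then lower, against 3, and 0 higher. The haemoglobin ranges, the single stages, the fibroblast and osteoblast alternatives and the early-cell ones were chosen after the data had been seen. Depth limits the small classes most, since 3 counts equal 18.6 CPM in sham endothelium and 104 CPM in sham mural cells.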

Other observations

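Cells set apart as mixed that passed the erythroid minimum, 23 in distraction and 32 in sham, had counts of each of the 5 genes. Dmtn was in 69.6% and 75% of them and Rhag in 65.2% and 65.6%. Slc4a1 was at 2237 and 2580.0 CPM in them and Aqp1 at 783 and 947.5 CPM, with median depths of 19510.0 and 11386.5 UMIs. Of these cells, 13 in distraction and 12 in sham also passed the neutrophil minimum, and 4 and 12 the B-lineage minimum.

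The 8 early distraction cells without a Slc4a1 UMI held Aqp1 in 7, Dmtn in 5, Rhd in 4 and Rhag in 3. The 3 such sham cells held Aqp1 in 3, Dmtn in 2, Rhd in 2 and Rhag in 1.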
